A study of Bos taurus with 20 samples.

Results

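The interleukin 1 (IL1) system was followed in the udder tissue of 5 Holstein Friesian cows during Escherichia coli mastitis. It was taken as 8 genes of the 9155 with a symbol of their own on the array. They were the agonists IL1A and IL1B, the antagonist IL1RN, the decoy receptor IL1R2, and the signalling receptor IL1R1 with its accessory chain IL1RAP. The related cytokine IL18 and the processing protease CASP1 were the others. Every probe set that the platform annotation gives to 1 of these symbols was used, which made 12 probe sets of the 24128 on the Affymetrix Bovine array. Each cow gave the tissue of all 4 mammary glands of her udder, 1 gland to each group, and each gland gave 1 array. CFPD glands were challenged with 100 cfu of E. coli and infused with 300 mg cefapirin plus 20 mg prednisolone, CF glands were challenged and infused with 300 mg cefapirin alone, CNT glands were challenged and left untreated, and NC glands were neither challenged nor treated. Tissue was taken 24 h post challenge from cows 4 and 5, after infusions at 4 and 12 h, and 48 h post challenge from cows 1, 2 and 3, after further infusions at 24 and 36 h. The cows are numbered here by their identifiers, so that each group holds 2 glands at 24 h and 3 at 48 h, and no cow was sampled at both times.

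IL1A and IL1B are the cytokines that open much of the local inflammatory response: they bind IL1R1, which pairs with IL1RAP and signals through MYD88 to NF-kappaB. The system is checked from the outside by proteins made at the same sites, namely the receptor antagonist encoded by IL1RN, which occupies IL1R1 without signalling, and IL1R2, which captures IL1 and lacks a signalling domain. IL1B and IL18 are made as inactive precursors that caspase 1 cuts inside an inflammasome, so a transcript level says nothing of the amount of active cytokine. In the bovine assembly ARS-UCD2.0 IL1A, IL1B, IL1RN, IL1R1 and IL1R2 all lie on chromosome 11, while CASP1 and IL18 lie on chromosome 15. IL1R2 and IL1R1 are next to each other, and IL37, IL36G, IL36A, IL36B, IL36RN and IL1F10 lie between IL1B and IL1RN.

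All values are log2 RMA signals as deposited, so a difference of 1 is a 2-fold change in signal. Levels of different probe sets were not set against each other. A probe set was tested at 24 h when at least 2 arrays, and at 48 h when at least 3 arrays, lay above that array's own median, and called when its adjusted p was under 0.05 and its signal differed by 1 log2 unit or more. The 6 probe sets that passed at 24 h were those of IL1RN, IL1R2, IL1R1, IL18, CASP1 and 1 of the 3 for IL1RAP, and the same without IL1R2 made 5 at 48 h. Both IL1A, both IL1B and the other 2 IL1RAP probe sets passed at neither time. The IL1A and IL1B probe sets are told apart below by the endings S1_at and S2_at of their identifiers and those of IL1RAP as the first (the tested one), the second and the third, and the full identifiers head the panels of the plot of levels. IL1R2, IL18 and CASP1 passed at 24 h only through the CNT glands, where they were high, so their passing is not independent of that contrast. Tests of members outside the filter come from a fit of all 24016 probe sets other than controls, and are named as such.

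Some limits of the samples come before the results. By the labels NC was the right front and CNT the left front gland of every cow, so position and group cannot be told apart. The rear positions of CF and CFPD were reversed in cows 1 and 4 relative to the other cows, and in these 2 cows the study's own fold changes fit the deposited values better with the treatment labels swapped. Which label is right for the CF and CFPD glands of cows 1 and 4 is therefore in doubt, and comparisons that use them were also run with the labels exchanged. The labels place the tissue in the cisternal region and the study's methods in the parenchyma. Markers of the secretory mammary epithelium were all above the array median on some array, with mean levels between 13.1 and 13.7 in every group. In CNT against NC glands limma called 211 probe sets higher and 100 lower at 24 h, out of 13004 tested, while 279 were higher and 67 lower at the later time, out of 13000.

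In challenged untreated glands the antagonist IL1RN was up-regulated 16.3-fold at 24 h and 8.87-fold at 48 h. The decoy receptor IL1R2 was up-regulated 13.8-fold at 24 h, and at 48 h the accessory chain IL1RAP (5.84-fold) and the protease CASP1 (3.03-fold) were. IL1R2 did not pass the filter at 48 h, and IL1RAP and CASP1 were tested at 24 h without a call. A call at 1 time only is not a difference between times. No call was made for the agonists IL1A and IL1B, for IL18 or for the receptor IL1R1 at either time. Of the member probe sets tested, 2 were called higher at 24 h, where 1.62% of all probe sets tested were, and 3 at 48 h, where 2.15% were. None was called lower, against 0.769% and 0.515% of all probe sets tested at 24 and 48 h. Among all 12 member probe sets the log2 fold change had a median of 1.34 at 24 h and 0.87 at 48 h, beside medians of −0.05 and 0.01 over all 24016. Glands of CNT lay wholly above those of NC for 11 of the 12 at 24 h and for 6 at 48 h, against 20.5% and 15.4% of all 24016 probe sets. The median log2 fold change of all tested probe sets was −0.01 at 24 h and 0.13 at 48 h, so that changes at 48 h stand on a shift of that size.

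**Figure D1:**
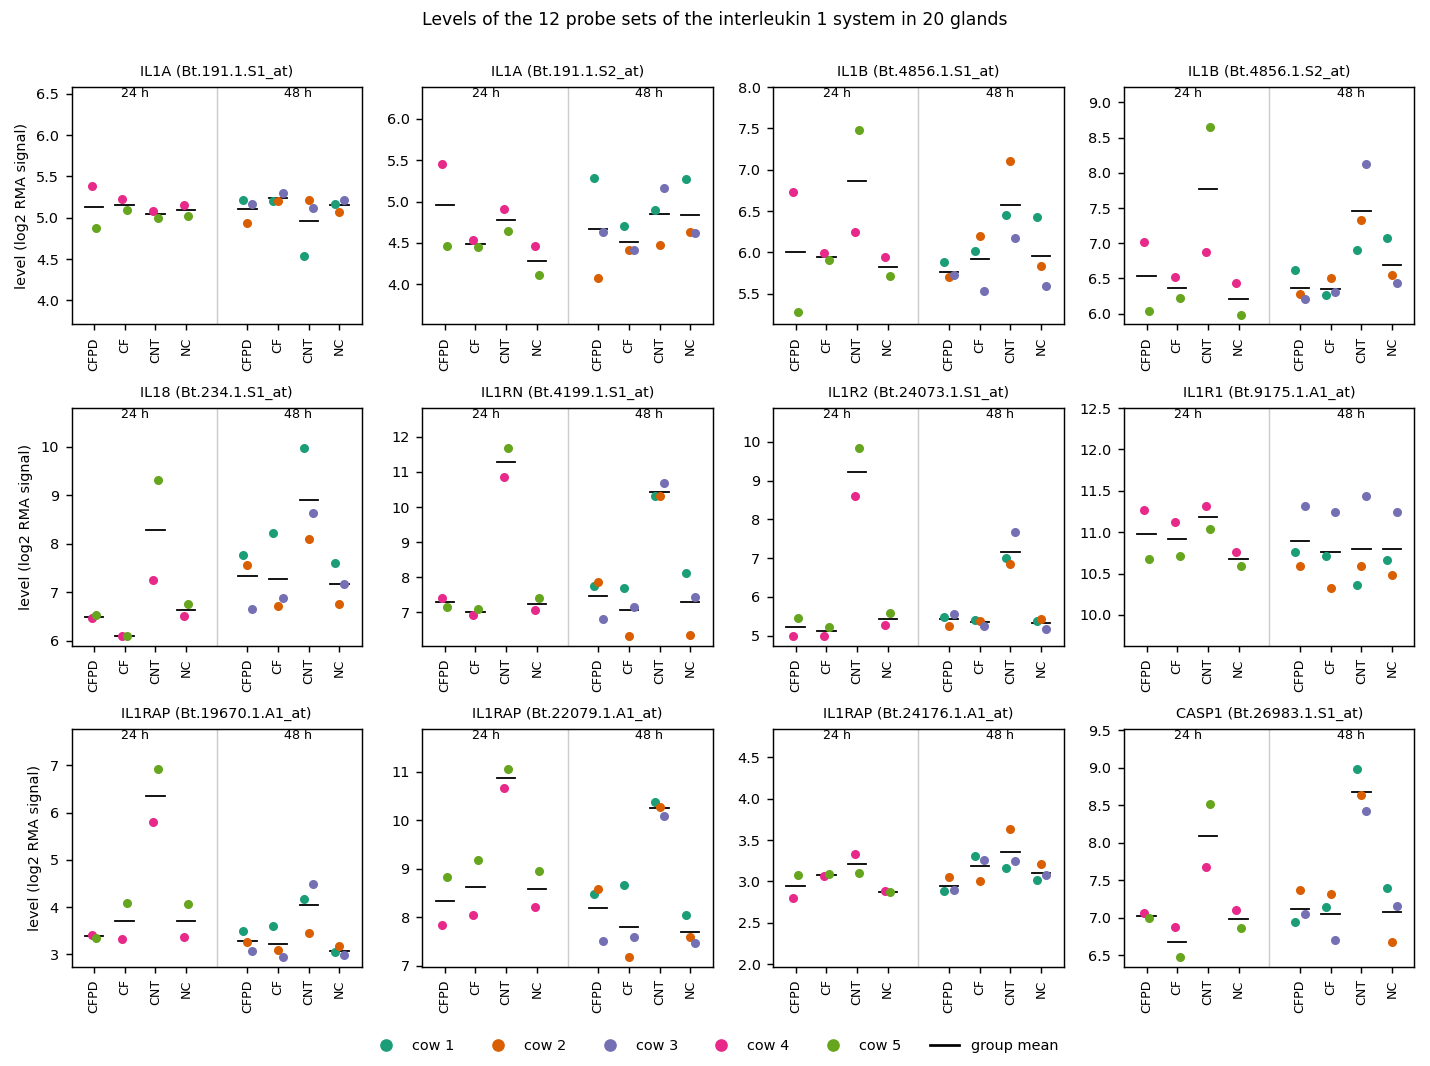
Levels of the 12 probe sets (log2 RMA signal) in the 20 glands, by group at 24 h (left of the grey line) and 48 h (right), with 1 point per gland coloured by cow and a bar at the group mean. Each panel has its own axis. The CNT points of IL1RN lie between 10.32 and 11.68, above every other gland, while those of IL1A and IL1R1 lie among the rest.

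Among the agonists, IL1A, the membrane-associated alarmin released from damaged cells, was low and flat. Its probe set S1_at measured between 4.54 and 5.38 and S2_at between 4.08 and 5.45 over all 20 glands, both below the array median everywhere. The log2 fold change in CNT against NC glands was −0.05 at 24 h and −0.19 at 48 h by S1_at, and 0.49 and 0.01 by S2_at, in the fit of all probe sets. With signals this low, a change in IL1A transcripts could pass unseen.

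IL1B, the main secreted agonist, was measured by 2 probe sets of 1 transcript cluster. In CNT glands S2_at read 6.88 (cow 4) and 8.65 (cow 5) at 24 h, against 6.43 and 5.98 in NC glands. At 48 h it read 6.90, 7.33 and 8.13 in the CNT glands of cows 1, 2 and 3, against 7.08, 6.55 and 6.44 in their NC glands. By S2_at 1 cow at each time, cow 5 at 24 h and cow 3 at 48 h, stood above the others. At 48 h the CNT gland of cow 1 was below its own NC gland by S2_at, so that the groups overlapped there. The log2 fold change in the fit of all probe sets was 1.56 (SE 0.56, adjusted p = 0.223) at 24 h and 0.76 (SE 0.28, adjusted p = 0.135) at 48 h. The other probe set, S1_at, gave 1.03 (adjusted p = 0.365) and 0.63 (adjusted p = 0.193). At 48 h S1_at read 6.45, 7.11 and 6.17 in the CNT glands of cows 1, 2 and 3, against 6.43, 5.84 and 5.59 in their NC glands. By S1_at cow 2 was thus the highest at 48 h, and each CNT gland was above its own NC gland. IL1B was thus not called, and the 95% interval of S2_at at 24 h ran from 0.26 to 2.85.

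IL18, a cytokine that induces interferon gamma and is released by the same caspase, read 7.25 and 9.32 in the CNT glands of cows 4 and 5 at 24 h, against 6.50 and 6.75 in NC glands. At 48 h the CNT glands of cows 1, 2 and 3 read 9.97, 8.10 and 8.64, against 7.60, 6.76 and 7.16 in NC glands. Every CNT gland lay above every NC gland at each time, with cow 5 at 24 h and cow 1 at 48 h the highest. Its log2 fold change was 1.66 (SE 0.57, adjusted p = 0.166) at 24 h and 1.73 (SE 0.51, adjusted p = 0.0781) at 48 h and passed at neither time. With the cow as a block the 48 h difference was called (adjusted p = 0.00666).

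IL1RN, the receptor antagonist, carried the largest log2 fold change of the members in CNT against NC glands at both times. It read 10.87 and 11.68 in the CNT glands of cows 4 and 5 at 24 h, against 7.07 and 7.42 in NC glands. At 48 h it read 10.32, 10.32 and 10.69 in the CNT glands of cows 1, 2 and 3, against 8.11, 6.34 and 7.43 in NC glands. The CNT glands were close to each other and far above all NC glands, of which those at 48 h were the more spread. The log2 fold change was 4.03 (SE 0.28, adjusted p = 0.00424) at 24 h and 3.15 (SE 0.46, adjusted p = 0.00567) at 48 h, ranking 27th and 30th among the 24016 probe sets.

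IL1R2, the decoy receptor, was high in the same glands. At 24 h it read 8.61 and 9.84 in the CNT glands of cows 4 and 5, against 5.29 and 5.59 in NC glands, and at 48 h 7.01, 6.84 and 7.67 in those of cows 1, 2 and 3, against 5.37, 5.44 and 5.17. All 15 glands of the other groups stayed between 4.99 and 5.59, so the CNT glands stood alone, and those of 48 h were all below those of 24 h. The difference on the log2 scale was 3.79 (SE 0.39, adjusted p = 0.0137) at 24 h. At 48 h IL1R2 did not pass the filter, and the fit of all probe sets gave 1.85 (SE 0.20, adjusted p = 0.00134), which was called, as were 1.4% of its probe sets in that direction.

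Of the signalling receptor, the binding chain IL1R1 was not called. CNT glands of cows 4 and 5 read 11.32 and 11.04 at 24 h, against 10.76 and 10.59 in NC glands, and those of cows 1, 2 and 3 read 10.36, 10.59 and 11.44 at 48 h, against 10.66, 10.48 and 11.24. The groups were apart at 24 h and mixed at 48 h, where cow 3 was the highest in every group. The difference was 0.50 log2 units (95% interval −0.09 to 1.09, adjusted p = 0.310) at 24 h and −0.00 (95% interval −0.73 to 0.73) at 48 h.

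IL1RAP, the accessory chain without which IL1R1 does not signal, was measured by 3 probe sets of separate transcript clusters, which did not move alike. The first read 10.67 and 11.05 in the CNT glands of cows 4 and 5 at 24 h, against 8.21 and 8.95 in NC glands. At 48 h it read 10.38, 10.28 and 10.08 in CNT glands, against 8.04, 7.59 and 7.48 in NC glands. CNT glands lay within 1 log2 unit of each other and above all others. The log2 difference was 2.28 (SE 0.47, adjusted p = 0.0582) at 24 h, which was not called, and 2.55 (SE 0.37, adjusted p = 0.00567) at 48 h, which was. With the cow as a block the 24 h difference was called too (adjusted p = 0.00213).

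The second IL1RAP probe set was dim in the other groups. It read 5.80 and 6.92 in the CNT glands of cows 4 and 5 at 24 h, against 3.36 and 4.07 in NC glands, and 4.17, 3.46 and 4.50 in those of cows 1, 2 and 3 at 48 h, against 3.05, 3.18 and 2.99. In the fit of all probe sets its log2 fold change was 2.64 (SE 0.42, adjusted p = 0.0360) at 24 h, which was called, as were 0.899% of probe sets in that fit, and 0.97 (adjusted p = 0.0613) at 48 h. Both at 24 h and at 48 h its CNT glands lay above its NC glands. The third stayed between 2.80 and 3.64 on all 20 arrays. Which IL1RAP transcripts, membrane-bound or soluble, each probe set reads is not given in the sources used here.

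CASP1, the protease that matures IL1B and IL18, read 7.68 and 8.51 in the CNT glands of cows 4 and 5 at 24 h, against 7.10 and 6.86 in NC glands. At 48 h CNT glands read 8.98, 8.63 and 8.42, against 7.40, 6.68 and 7.15 in NC glands. All CNT glands exceeded all NC glands, by least in cow 4. The fold change on the log2 scale was 1.11 (SE 0.29, adjusted p = 0.0900) at 24 h and 1.60 (SE 0.23, adjusted p = 0.00570) at 48 h, called at the later time. With the cow as a block the 24 h difference was called (adjusted p = 0.0421), but not when the doubtful treatment labels were exchanged as well.

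The cow as a block raised the member calls to 4 at 24 h, where it called 3.98% of all probe sets higher, and to 4 at 48 h, where it called 3.87%. Without the block the number of calls changed with the cow left out, over the whole array as among the members. At 48 h the same 3 members were called without cow 1, where 151 of 13000 probe sets were called higher. No member was called without cow 2, where 14 were called higher. None was called without cow 3 either, where no probe set was. Leaving out a cow lowered the residual degrees of freedom from 8 to 4. Without 1 array or cow the log2 fold change at 48 h lay between 2.67 and 3.62 for IL1RN, between 2.43 and 2.72 for IL1RAP and between 1.40 and 1.77 for CASP1. At 24 h such fits leave 1 gland in a group, so only sizes are given. Without 1 array or cow the log2 fold change at 24 h lay between 3.63 and 4.43 for IL1RN and between 3.17 and 4.40 for IL1R2.

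**Figure D2:**
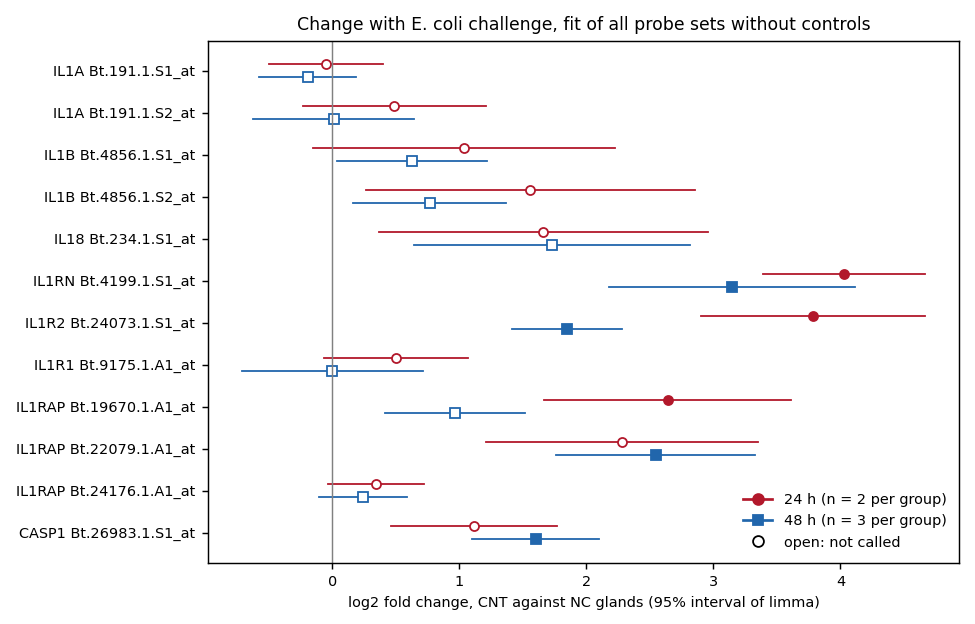
Log2 fold change in CNT against NC glands (x axis) of the 12 probe sets (y axis) at 24 h (red circles, n = 2 per group) and 48 h (blue squares, n = 3 per group), from the limma fit of all 24016 probe sets, with 95% intervals. Filled symbols are called and open ones are not: IL1RN and IL1R2 are filled at both times, and both IL1A probe sets lie within 0.5 of 0.

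The antagonist was compared with the other members within each cow, since a change can be set against a change where levels cannot. In CNT against NC glands the change of IL1RN exceeded that of the other probe set in all 5 cows for 9 of the 11 others. Those 9 include both IL1A probe sets and the second and the third IL1RAP probe set, which lay below the median on all 20 arrays, so that an excess over them need not be a difference in transcript change. The excess averaged 2.71 ± 0.48 and 2.42 ± 0.85 log2 units over the dim IL1B probe sets (SD, n = 5 cows). Over IL1R1 it averaged 3.30 ± 0.56, and over CASP1 2.10 ± 0.96. The excess over IL1R2 was 0.88 ± 0.99, with a range of 0.01 in cow 5 to 2.57 in cow 2. Against IL18 (1.80 ± 1.24) and the first IL1RAP probe set (1.06 ± 0.85) IL1RN changed more in 4 of 5 cows, cow 1 being the exception for both with −0.17 and −0.13. An exact two-sided test that exchanges the 2 glands within a cow gave p = 0.0625 for each of the 9 and p = 0.125 for the other 2, and 0.0625 is the smallest p that 5 cows allow, so none of the 11 comparisons could pass 0.05.

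Antibiotic treatment was set against no treatment among challenged glands. In CF against CNT glands IL1RN and IL1R2 were down-regulated at 24 h, and IL1RN, IL1RAP and CASP1 at 48 h. These comparisons share the CNT arrays with those above, so they are not separate evidence of how high the CNT glands were. Of the member probe sets tested, 2 were called lower at 24 h and 3 at 48 h, beside 1.59% and 1.5% of all probe sets tested, and none was called higher, beside 0.546% and 0.138%.

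At 24 h IL1RN read 6.93 and 7.10 in the CF glands of cows 4 and 5, against the 10.87 and 11.68 of their CNT glands, and its log2 fold change was −4.26 (SE 0.28, adjusted p = 0.00447). IL1R2 read 5.00 and 5.23 in CF glands, against 8.61 and 9.84 in CNT glands, a log2 fold change of −4.11 (SE 0.39, adjusted p = 0.0102). CF glands overlapped NC glands for IL1RN and lay just below them for IL1R2. The first IL1RAP probe set (−2.24, adjusted p = 0.0628), IL18 (−2.19, adjusted p = 0.0947) and CASP1 (−1.42, adjusted p = 0.0548) did not pass, and all 3 were called with the cow as a block (adjusted p = 0.00252, 0.0278 and 0.0211), which brought the count to 5, where that fit called 4.16% of all probe sets lower.

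At 48 h IL1RN read 7.68, 6.32 and 7.16 in the CF glands of cows 1, 2 and 3, a log2 fold change of −3.39 (SE 0.46, adjusted p = 0.00391) from CNT glands. The first IL1RAP probe set read 8.66, 7.18 and 7.59 in CF glands (−2.44, SE 0.37, adjusted p = 0.00665), and CASP1 read 7.14, 7.31 and 6.70 (−1.63, SE 0.23, adjusted p = 0.00520). No CF gland reached a CNT gland for these 3 genes. IL18 read 8.22, 6.72 and 6.88 in CF glands, the first of which was above the 8.10 of the CNT gland of cow 2, and its log2 fold change of −1.63 (SE 0.51, adjusted p = 0.121) passed only with the cow as a block (adjusted p = 0.0106). That made 4 calls with the block, beside 3.23% of all probe sets tested. IL1R2, outside the filter, read 5.40, 5.37 and 5.26 in CF glands and had −1.83 (SE 0.20, adjusted p = 0.00159) in the fit of all probe sets, which called 1.07% of them lower. Without cow 3 no member was called at 48 h, and no probe set was. Without cow 2 only IL1RN was, where 36 of 13000 probe sets were called lower. Without cow 1 IL1RN and IL1RAP were, where 138 were called lower. At 24 h, without 1 array or cow, the log2 fold change lay between −4.66 and −3.86 for IL1RN and between −4.72 and −3.49 for IL1R2.

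Cefapirin plus prednisolone, a glucocorticoid, was set against no treatment by comparing CFPD with CNT glands. IL1RN and IL1R2 were again called lower at 24 h, and IL1RN, IL1RAP and CASP1 at 48 h. At 24 h the CFPD glands of cows 4 and 5 read 7.41 and 7.15 for IL1RN, a log2 fold change of −4.00 (SE 0.28, adjusted p = 0.00663), and 4.99 and 5.46 for IL1R2, a log2 fold change of −4.00 (SE 0.39, adjusted p = 0.0137). Both were below every CNT gland by more than 3 log2 units. These 2 calls of lower signal stand beside 1.04% of all probe sets tested, and no member was called higher, beside 0.361%. The first IL1RAP probe set, at 7.84 and 8.83 in CFPD glands, had −2.53 (SE 0.47, adjusted p = 0.0556), and was called with the cow as a block (adjusted p = 0.00203), which made 3 calls beside 3.49% of all probe sets. IL18 (−1.79, adjusted p = 0.168) and CASP1 (−1.07, adjusted p = 0.121) did not pass.

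At 48 h IL1RN read 7.76, 7.87 and 6.80 in the CFPD glands of cows 1, 2 and 3 (a log2 fold change of −2.97 against CNT, SE 0.46, adjusted p = 0.00964). The first IL1RAP probe set read 8.49, 8.58 and 7.51 (−2.05, SE 0.37, adjusted p = 0.0197) and CASP1 6.94, 7.37 and 7.05 (−1.56, SE 0.23, adjusted p = 0.00894). All 3 were called lower, beside 1.05% of all probe sets tested, none was called higher, beside 0.162%, and no CFPD gland of these genes overlapped a CNT gland. IL18 had −1.58 (SE 0.51, adjusted p = 0.150), called with the cow as a block (adjusted p = 0.0143), which made 4 calls beside 2.37% of all probe sets. IL1R2 read 5.49, 5.26 and 5.57 in CFPD glands and had −1.73 (SE 0.20, adjusted p = 0.00288) in the fit of all probe sets, which called 0.758% of them lower. Without cow 3 no member was called at 48 h, and no probe set was. Without cow 2 only IL1RN was, where 34 of 13000 probe sets were called lower. Without cow 1 IL1RN and IL1RAP were, where 88 were called lower. At 24 h, without 1 array or cow, the log2 fold change lay between −4.53 and −3.47 for IL1RN and between −4.61 and −3.38 for IL1R2.

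Among the members outside the filter, IL1B was not called in either comparison. IL1B S2_at read 7.02 and 6.04 at 24 h and 6.62, 6.28 and 6.21 at 48 h in CFPD glands, and 6.52 and 6.22, and 6.26, 6.50 and 6.31, in CF glands. The CFPD gland of cow 4 was above its CNT gland (6.88) at 24 h, while at 48 h all treated glands were below all CNT glands. In the fit of all probe sets its log2 difference from CNT was −1.24 (adjusted p = 0.327) and −1.08 (adjusted p = 0.0927) in CFPD and −1.40 (adjusted p = 0.232) and −1.10 (adjusted p = 0.0719) in CF glands at 24 and 48 h. By IL1B S1_at the CFPD glands also lay below all CNT glands at 48 h. The CF gland of cow 2 (6.20) did not, being above the CNT gland of cow 3 (6.17). The second IL1RAP probe set, at 3.41 and 3.35 in CFPD and 3.33 and 4.09 in CF glands at 24 h, was called lower in both (−2.98, adjusted p = 0.0340, beside 0.579% of all probe sets, and −2.65, adjusted p = 0.0370, beside 0.899%), and at 48 h it was called in neither. Glands lay wholly below CNT for 7 and 8 of the 12 member probe sets in CFPD, against 18.5% and 12.5% of all probe sets, and for 10 and 5 in CF, against 20.8% and 10.9%, at 24 and 48 h.

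**Figure D3:**
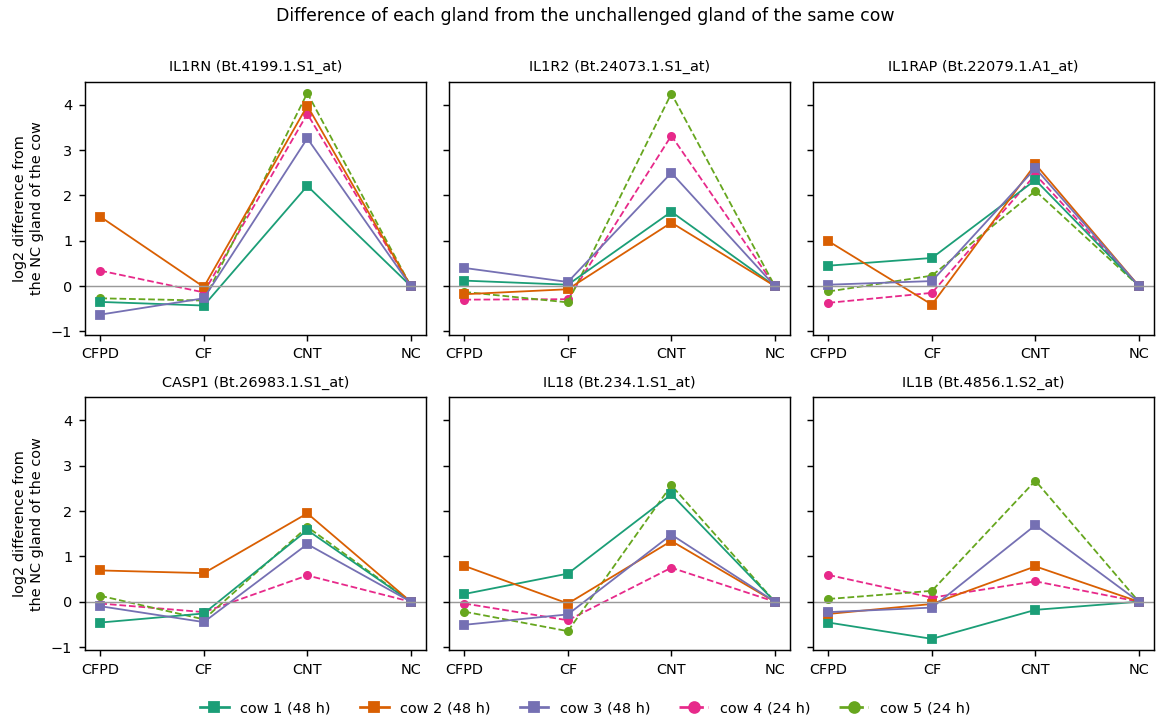
Log2 difference of each CFPD, CF and CNT gland from the NC gland of the same cow (y axis) for 6 probe sets, with 1 line per cow (dashed circles 24 h, solid squares 48 h) and NC at 0 by construction. For IL1RN every cow peaks at its CNT gland, between 2.21 and 4.26, while CFPD and CF glands lie between −0.63 and 1.53.

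Treated glands were also set against unchallenged ones. No member was called in CF or CFPD against NC glands at either time, as for all probe sets tested (0.0%). Over the members tested the log2 fold change lay between −0.53 (IL18) and 0.23 (IL1R1) at 24 h and between −0.24 (IL1RN) and 0.11 (IL1RAP) at 48 h in CF glands, and between −0.25 (IL1RAP) and 0.29 (IL1R1) at 24 h and between 0.04 (CASP1) and 0.49 (IL1RAP) at 48 h in CFPD glands. At an unadjusted p under 0.05 limma had 106 and 82 probe sets (0.815% and 0.631%) in CF glands at 24 and 48 h. In CFPD glands it had 258 and 43 (1.98% and 0.331%). The intervals were wide: that of IL1RN in CFPD against NC glands ran from −0.82 to 1.18 at 48 h.

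The contrast of CFPD with CF glands isolates the addition of prednisolone, and no member was called, nor was any probe set (0.0%). At an unadjusted p under 0.05 limma had 67 at 24 h and 21 at 48 h, or 0.515% and 0.162% of those tested. With the cow as a block none was called either, and these shares were 1.79% and 0.877%. Each share, taken as a fraction and not as a percentage, is below the 0.05 that the limit would pass if p-values were evenly spread. At 24 h the log2 fold change of IL1RN was 0.26 (95% interval −0.40 to 0.93), that of IL18 0.40 (−0.95 to 1.76), that of CASP1 0.36 (−0.32 to 1.03) and that of IL1R2 0.11 (−0.81 to 1.03). The first IL1RAP probe set had −0.29 (−1.41 to 0.83) and IL1R1 0.06 (−0.53 to 0.65). CFPD glands lay wholly above CF glands at 24 h for IL18, IL1RN and CASP1, 3 of the 12 member probe sets, beside 11.1% of all 24016.

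At 48 h the values were 0.43 (−0.57 to 1.42) for IL1RN, 0.39 (−0.42 to 1.19) for the first IL1RAP probe set, 0.07 (−0.44 to 0.58) for CASP1, 0.05 (−1.07 to 1.18) for IL18 and 0.13 (−0.60 to 0.86) for IL1R1. All groups overlapped. With the labels of cows 1 and 4 exchanged no member was called either, IL1RN and IL1R1 changed sign at 24 h (−0.21 and −0.09), and the 24 h values of IL18 and CASP1 were 0.026 and 0.16. The intervals, from the fit without the block, leave room for differences of up to 1 log2 unit or more in either direction for several members. An effect of prednisolone on these transcripts was not detected with 2 and 3 cows.

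Time points were compared by the difference of the same contrast at 48 and 24 h, which sets different cows against each other. No member was called, nor was any probe set tested (0.0% of 13486), with 1052 probe sets for CNT against NC, 735 for CF against CNT and 643 for CFPD against CNT at an unadjusted p under 0.05 in limma. IL1R2 came nearest: its CNT against NC difference was −1.94 log2 units (SE 0.42, adjusted p = 0.180) at 48 h minus that at 24 h, and its CF against CNT and CFPD against CNT differences were 2.28 (adjusted p = 0.116) and 2.27 (adjusted p = 0.220). With the cow as a random block all 3 were called (adjusted p = 0.0261, 0.0114 and 0.0144), beside 0.512%, 0.156% and 0.156% of all probe sets, and the CF against CNT difference was also called without cow 4 (adjusted p = 0.0405). IL1R2 entered this test only through its 24 h CNT glands, where it was high, so these values are not independent of a fall between times. In the fit of all 24016 probe sets, run without the block, no member was called (adjusted p = 0.195, 0.126 and 0.236 for IL1R2). For IL1RN the CNT against NC difference was −0.88 (SE 0.65, adjusted p = 0.802).

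Other genes of the pathway were read from lists. Of 15 further ligands and receptors of the IL1 family, 3 were on the array and 2 were tested. SIGIRR, an inhibitory receptor, had a log2 fold change in CNT against NC glands of 0.02 at 24 h and −0.27 at 48 h, and the alarmin IL33 had 0.41 and 1.03, with no call. IL18R1, the binding chain of the IL18 receptor, was below the median of every array.

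Among 21 genes of the inflammasome and of IL1 and IL18 release, 5 were on the array and 3 were tested. Of these 2 were called higher at each time, beside 1.62% and 2.15% of all probe sets tested. PYCARD, the adaptor that joins sensors to caspase 1, had a log2 fold change of 2.16 (SE 0.42, adjusted p = 0.0484) at 24 h and 1.81 (SE 0.33, adjusted p = 0.0142) at 48 h. CASP4, a caspase that senses cytosolic lipopolysaccharide in human cells, had 1.81 at both times (adjusted p = 0.0273 and 0.0261). In CF against CNT glands 2 of the 3 were called lower at each time, beside 1.59% and 1.5% of all probe sets tested. In CFPD against CNT glands none was at 24 h and 2 were at 48 h, beside 1.04% and 1.05%. With the cow as a block 2 were at 24 h, beside 3.49%. Below the receptor no gene of the list was called, out of 24 kinases, adaptors and NF-kappaB members tested at 24 h and 23 at 48 h, a count near the share of all probe sets called. The fit with the cow as a block called 1 higher at 48 h, and 1 lower in CF against CNT glands at each time. Their median log2 fold changes of 0.11 and 0.13 stood beside −0.01 and 0.13 for all probe sets tested.

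Of 26 genes known to be induced by IL1, 25 were on the array, of which 18 were tested at 24 h and 16 at 48 h. Called higher were 6 and 4, beside 1.62% and 2.15% of all probe sets tested. None was called lower, beside 0.769% and 0.515%. The neutrophil-attracting chemokine CXCL5 was called at both times (log2 fold change 3.47 and 3.58). Called at 24 h alone were the monocyte chemokine CCL2 (3.31 at 24 h and 1.72 at 48 h), the acute phase protein SAA3 (4.56 and 3.78), the adhesion molecule VCAM1 (1.47 and 0.85), the mitochondrial superoxide dismutase SOD2 (1.02 and 1.58) and the hyaluronan-binding TNFAIP6, tested at 24 h (2.34). Called at 48 h alone were the chemokines CXCL8 (5.23 at 24 h and 4.05 at 48 h) and CXCL2 (5.27 and 4.14) and the apoptosis inhibitor BIRC3 (1.39 and 1.39). A call at 1 time alone does not show a difference between times. With the cow as a block 8 and 9 were called higher, beside 3.98% and 3.87% of all probe sets tested. Against CNT glands 1 was called lower in CFPD glands at each time, beside 1.04% and 1.05%. With the block 3 and 8 were, beside 3.49% and 2.37%. In CF glands 3 were called lower at each time, beside 1.59% and 1.5%. With the block 6 and 7 were, beside 4.16% and 3.23%. Many of these genes answer to other signals of infection as well. Their median log2 fold changes in CNT against NC glands were 2.11 and 1.48, beside −0.01 and 0.13 for all probe sets tested.

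Markers of neutrophils moved with some of the members, namely IL1RN, IL1R2, IL18, CASP1 and the first IL1RAP probe set. In CNT against NC glands 6 of the 9 marker genes tested were called higher at 24 h and 8 of 9 at the later time. Of all probe sets tested 1.62% and 2.15% were. The mean level of the 11 markers on the array was 10.03 to 11.50 in CNT glands at 24 h, against 7.83 to 8.14 in NC glands, and 9.94 to 10.64 at 48 h, against 7.65 to 8.36. In CFPD glands it was 8.15 to 8.29 at 24 h and 8.01 to 8.48 at 48 h, and in CF glands 8.00 to 8.11 and 7.83 to 8.40. Against CNT glands 5 of 9 at 24 h and 7 of 9 at 48 h were called lower in CFPD glands, and 7 of 9 at both times in CF glands. The shares of all probe sets tested were 1.04% and 1.05% in CFPD glands, and 1.59% and 1.5% in CF glands. FCGR3A was below the median on every array. Their part in the results for IL1RN, IL1R2, IL1RAP, IL18 and CASP1 was not tested, and in bulk tissue more cells of a type and more RNA per cell cannot be told apart.

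Fewer of the other leukocyte markers were called. The counts below stand beside 1.62% and 2.15% of all probe sets called higher, and 0.769% and 0.515% lower, at 24 and 48 h. With the cow as a block 3.98% and 3.87% were called higher. Of 9 markers of monocytes and macrophages tested, none was called at 24 h and 3 were higher at 48 h, with mean levels of 8.74 to 9.64 in CNT glands, against 8.08 to 8.39 in NC glands, at 24 h, and 9.47 to 10.03, against 8.36 to 9.12, at 48 h. Of 5 general leukocyte genes none was called at 24 h and 1 was higher at 48 h. With the cow as a block 4 and 5 of the monocyte and macrophage markers and 4 and 3 of the general ones were called higher at 24 and 48 h, while the probe set read for the scavenger receptor MSR1, of the monocyte and macrophage list, was called lower at 48 h (log2 fold change −1.51) and another probe set of that gene was not called, and 2 fibroblast markers were lower at 24 h and 1 higher at 48 h. No marker of T and NK cells, B and plasma cells, endothelium or fibroblasts was called in this comparison without the block, and 2 of 12 epithelial markers, KRT19 and BTN1A1, were lower at 24 h and none at 48 h.

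Likeness across the 20 glands was described by Pearson's r over 8151 probe sets with 1 symbol that passed the filter at both times. IL1RN ran closest with the calgranulins S100A12 (r = 0.970) and S100A9 (r = 0.968) and with the transcription factor NFE2 (r = 0.969). IL1R2 ran closest with LOC407171 (r = 0.959), the CXCL8 receptor CXCR1 (r = 0.956) and ISG15 (r = 0.948), and IL1B S2_at with LOC407171 (r = 0.896), CCL3 (r = 0.893) and TREM1 (r = 0.884). S100A9, S100A12 and CXCR1 are among the neutrophil markers.

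The remaining members had other nearest genes. IL18 followed CYBB, the catalytic subunit of the phagocyte oxidase (r = 0.956), RHOQ (r = 0.943) and SLC66A3 (r = 0.940). CYBB is also among the neutrophil markers. The first IL1RAP probe set followed fibronectin, FN1 (r = 0.947), CASP4 (r = 0.940) and AMPD2 (r = 0.935), and CASP1 followed the integrin regulator FERMT3 (r = 0.957), NCKAP1L (r = 0.938) and BASP1 (r = 0.934). For IL1A (HCRT, TRABD and MAVS, r = 0.862, 0.841 and 0.835) and IL1R1 (ISCA2, PLEKHJ1 and NAA50, r = 0.857, 0.840 and 0.815) the values were lower. These coefficients pool groups, times and cows, and for the genes raised in CNT glands the 5 CNT glands stand apart from the other 15.

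**Figure D4:**
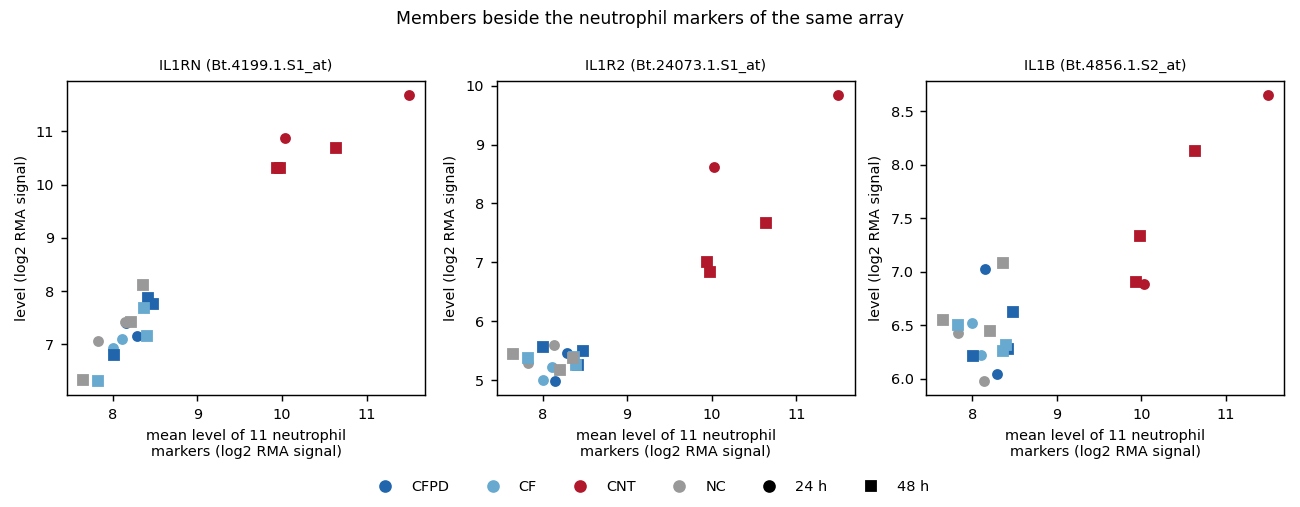
Level of IL1RN, IL1R2 and IL1B (y axes, log2 RMA signal) against the mean level of 11 neutrophil markers in the same gland (x axis, log2 RMA signal), coloured by group, with circles for 24 h and squares for 48 h. The 5 CNT glands lie at 9.94 or more on the x axis and the other 15 at 8.48 or less.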

How the data were processed

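The authors deposited log2 values made by RMA (background correction, quantile normalization and probe set summary) from 20 Affymetrix Bovine arrays, and tested them with limma. Tool versions and whether all arrays were normalized together are not given in the sources used here. Intensity files were not used here, so the number of arrays and the brightness of a probe set limit the precision. Symbols came from the platform annotation: 13318 probe sets had 1, 86 several and 10724 none, and 112 controls were left out.

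Each time point was fitted with limma 3.58.1 in R 4.3.3 (lmFit, eBayes) as 4 groups without a term for the cow, as the study's methods state none, with Benjamini-Hochberg adjustment over all probe sets tested (13004 at 24 h, 13000 at 48 h). Residual degrees of freedom were 4 and 8. Differences between times came from 1 fit of all 20 arrays (13486 probe sets). Glands of 1 cow are paired by the labels, and their deviations from group means correlated by 0.521 at 24 h and 0.448 at 48 h on average, so the cow was also fitted as a fixed or random block. The code was tested on simulated data. Array medians were 7.13 to 7.31.

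All members were described. From the lists, genes called in CNT against NC glands were named, and for each member the 3 genes of highest correlation with its brightest probe set. Members and lists were chosen with earlier results of these data known. Alternatives changed the filter, the prior, the normalization, the fold limit, the block, the arrays and the treatment labels of the 2 cows in doubt.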

Additional observations from a re-analysis of the deposited data

Results flagged for a closer look

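In 4 comparisons, of 3 probe sets, every cow differed from its NC gland in 1 direction at 24 h and in the other at 48 h, and this difference between times was not tested. For IL1A S2_at and IL1B S2_at the mean difference of CF from NC glands at 48 h minus that at 24 h was −0.53 and −0.49 log2 units. For IL1B S2_at the difference of CFPD from NC glands gave −0.64 by the same subtraction. For the first IL1RAP probe set the difference of CFPD from NC glands gave 0.74. None of these comparisons was called at either time, and CF and CFPD labels are in doubt for cows 1 and 4.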

How the results depend on the processing

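No called log2 fold change of a member turned its direction under any alternative run. The counts of calls moved at both times, as did those over all probe sets tested. At 24 h the 2 calls in CNT against NC glands became 4 with the cow as a block, fixed or random. They became 3 with the fixed block and labels exchanged, where CASP1 was not called. They became 3 with all 20 arrays in 1 fit, 3 without the filter and 1 with a filter on the mean level. In CF against CNT the 2 calls became 5 with either block and 5 with the fixed block and labels exchanged. They became 4 with all 20 arrays in 1 fit, 3 without the filter and 1 with the filter on the mean. In CFPD against CNT the 2 calls became 3 with the fixed block, 4 with the random block and 4 with the fixed block and labels exchanged. They became 3 with all 20 arrays in 1 fit, 3 without the filter and 1 with the filter on the mean. The filter on the mean removed IL1R2 from testing. At 48 h the 3 calls of each comparison became 4 with either block and 4 without the filter, and lay between 0 and 3 in CNT against NC, 0 and 4 in CF against CNT, and 0 and 3 in CFPD against CNT without 1 array or cow. The differences between times, with no call, had 1 each with the random block, and 0 to 0 (CNT against NC), 0 to 1 (CF against CNT) and 0 to 0 (CFPD against CNT) without 1 cow. Exchanging the labels together with the block was chosen after the data had been seen.

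Changes of direction concerned values that were not called. IL1R1 in CF against CNT at 48 h became 0.032 with each array centred on its median and 0.14 with quantile normalization. With the labels of cows 1 and 4 exchanged, with or without the block, IL1RN and IL1R1 in CFPD against CF at 24 h became −0.21 and −0.092. Without 1 array or cow, IL1R1 ranged over −0.32 to 0.22 (CNT against NC, 48 h), −0.28 to 0.28 (CF against CNT, 48 h), −0.50 to 0.091 (CFPD against CNT, 24 h) and −0.12 to 0.42 (CFPD against CNT, 48 h). In CFPD against CF the ranges at 24 h were −0.12 to 0.34 for IL1R2, −0.24 to 0.36 for IL1R1 and −0.85 to 0.27 for IL1RAP, and at 48 h −0.34 to 0.52 for IL18, −0.14 to 0.82 for IL1RN, −0.087 to 0.37 for IL1R1, −0.12 to 0.81 for IL1RAP and −0.10 to 0.20 for CASP1. The change of IL1RN exceeded that of 9 to 11 of the other 11 probe sets in every cow kept. Where a fit left 1 array in a group, that array was taken to vary like the other groups, and leaving out a cow at 24 h used 1 fit of the arrays of both times. The cause of these changes was not tested, except that fewer arrays leave fewer degrees of freedom. Low signal limits IL1A and IL1B, both below the filter.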
